A study of Homo sapiens with 6 samples.

Results

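The 10 genes described here encode stress response regulators around ATF4, the transcription factor that carries out the integrated stress response. Their rows were taken by symbol from a list made with earlier results of these data known, and all 10 had a row among the 23710 gene symbols counted. They are the bZIP transcription factors ATF4, ATF5, DDIT3, ATF3 and JDP2, the pseudokinases TRIB3, TRIB1 and TRIB2, the chromatin-associated protein NUPR1 and the glutathione-degrading enzyme CHAC1. Counts came from K562 cells, a human line of chronic myelogenous leukaemia with erythroid features, given 20 µM 3FM-dC plus 2 mM THU for 24 h (3 libraries) or the solvent DMSO for 24 h (3 libraries). The series title concerns an activator of TET2, and its design asked how 3FM-dC changes expression. All cells were of passages 13 to 16 and grew in Iscove's medium with 10% serum. Because both compounds were given together, the effect of 3FM-dC cannot be told apart from that of THU. Nothing in the labels says that the libraries of a group came from separate cultures, so p-values reflect how far these libraries lie apart, and that spread could be technical alone.

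In the integrated stress response, kinases that sense different stresses phosphorylate the translation initiation factor eIF2. General protein synthesis then falls, while the ATF4 message, held back by short upstream reading frames in unstressed cells, is translated more. ATF4 pairs with other bZIP proteins, binds composite elements shared with C/EBP factors and raises genes of amino acid supply together with further regulators such as DDIT3, ATF3, TRIB3 and CHAC1. Sequencing of mRNA reads transcript amounts and not this translational step.

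Libraries held between 18408826 and 22750278 counts in genes. The 11 K562 markers looked up, among them embryonic and fetal globins, GATA1, BCR and ABL1, each had at least 10 counts in every library, and their summed level was 4230.3 to 4422 CPM in treated and 7689.9 to 7885 CPM in DMSO libraries, with CPM taken on TMM-scaled library sizes. Of the 4 lymphoid markers MS4A1 was at 0 throughout, and the list summed to 2.19 to 3.33 CPM in treated and 0.672 to 1.41 CPM in DMSO libraries. The 4 fibroblast and endothelial markers summed to 3.00 to 4.17 CPM in treated and 3.63 to 5.49 CPM in DMSO libraries. The 3 epithelial markers summed to 60.6 to 63.6 CPM in treated and 102 to 103 CPM in DMSO libraries, nearly all of it EPCAM, with KRT5 at 0. What part these shifts have in the results was not tested. In bulk RNA, fewer cells that express a gene and less RNA per cell cannot be told apart.

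Treatment went with higher transcript levels of most of these regulators. By the quasi-likelihood test of edgeR, with Benjamini-Hochberg adjusted p-values over 12339 genes, 9 of the 10 members were higher in treated cells and TRIB1 was lower, all with an adjusted p under 0.05. Such calls were common: 33.8% of all genes tested were higher and 32.7% lower, and with libraries scaled by total counts 5048 genes were higher and 3189 lower. Rises of at least 2-fold were less common, at 10.2% of genes, and 8 of the 10 members made one. Rises of at least 4-fold were made by 3.62% of genes and by 7 members. The counts of 9, 8 and 7 members all include NUPR1, which passed the filter on low counts only through the treated libraries. Its rise therefore adds no support to them. The median log2 fold change was 2.42 over the members and 0.01 over all genes tested. The members were listed with earlier results of these data known, so these counts and this median are no independent evidence. Summed over the 10 members, transcripts came to 1862, 2038 and 1938 CPM in the treated libraries, against 552, 566 and 568 CPM in the DMSO libraries, a ratio of means of 3.46. Without ATF4 the ratio was 4.79.

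**Figure D1:**
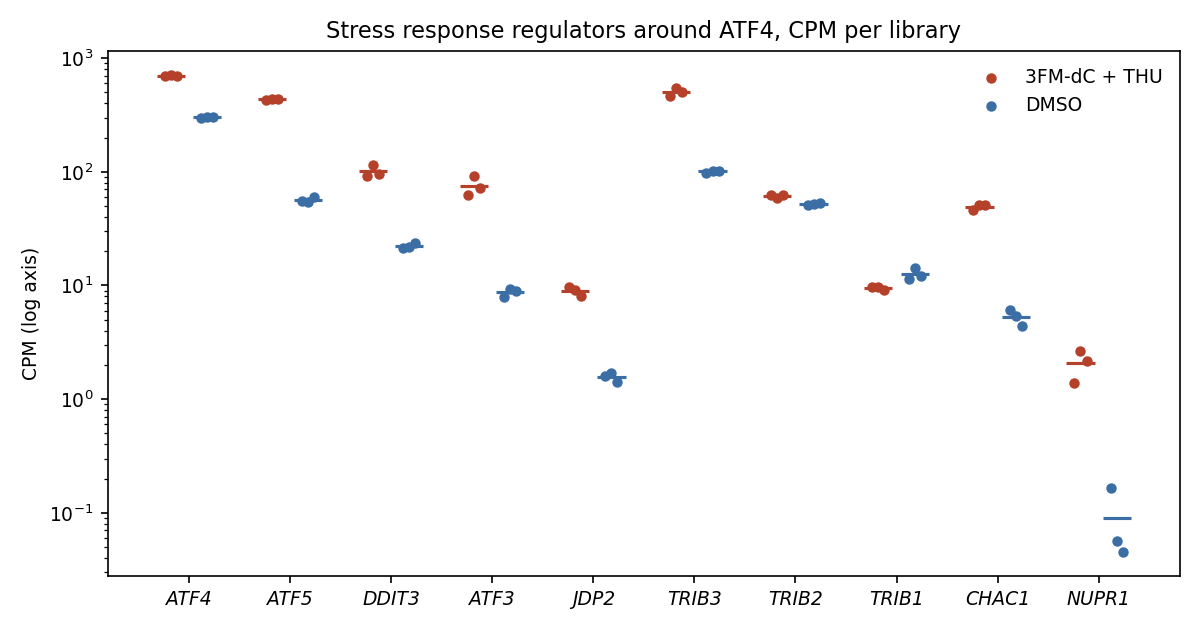
CPM of each member in each library on a log axis, with 3FM-dC plus THU libraries left (red) and DMSO libraries right (blue) of each gene, and bars at the group means. In 9 members every treated library lies above every DMSO library, and in TRIB1 every treated library lies below, with 9.09 to 9.76 CPM in treated and 11.4 to 14.3 CPM in DMSO libraries.

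ATF4, the effector of the pathway, had 691, 716 and 695 CPM in the treated libraries, against 299, 306 and 302 CPM in the DMSO libraries. Per length it had the highest level of the members in both groups, and its replicates lay close together, with a coefficient of variation of 1.90% in treated and 1.15% in DMSO cells. Its log2 fold change was 1.21 (SE 0.03, adjusted p = 2.09e-22), the smallest among the 8 members that rose at least 2-fold, and it stood at place 966 of 12339 genes ordered from the highest log2 fold change. The pseudogenes ATF4P3 and ATF4P4 match the ATF4 transcript with 97.5% identity over 1056 bases and 96.9% over 1051 bases in the GENCODE annotation of GRCh38. No counts for either were used here, and how reads were shared with them is not known, which leaves the ATF4 level uncertain to that extent.

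ATF5, a close relative of ATF4 whose message is also under upstream reading frames and which acts in mitochondrial stress, had 425, 441 and 438 CPM in the treated libraries, against 55.7, 54.1 and 60.6 CPM in the DMSO libraries. The groups lay far apart relative to their spread (434 ± 8.62 CPM in treated and 56.8 ± 3.38 CPM in DMSO cells). With a log2 fold change of 2.93 (SE 0.04, adjusted p = 1.33e-28) it had the smallest adjusted p of the members. In the annotation 626 exonic bases of ATF5 (21.2%) lie opposite exons of NUP62, a nuclear pore gene that was lower in treated cells (log2 fold change -0.58). The library kit keeps strand, but the strand setting of the counting is not given in the sources used here. Whether reads over such shared bases were counted for a gene or left out as ambiguous is therefore not known.

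DDIT3, better known as CHOP, dimerises with C/EBP proteins and is linked to cell death after lasting stress. It had 91.5, 114 and 96.0 CPM in the treated libraries, against 21.5, 21.7 and 23.7 CPM in the DMSO libraries. Treated replicate 2 was the highest, and the groups did not overlap. The log2 fold change was 2.17 (SE 0.07, adjusted p = 3.10e-20). Exons of MARS, a tRNA synthetase gene, lie opposite 355 exonic bases of DDIT3 (27.2%), and MARS was higher in treated cells too, with 621 ± 8.91 CPM against 377 ± 8.46 CPM in DMSO cells (SD, n = 3 each). A further 58 bases lie opposite MBD6 and 105 bases on the same strand as AC022506.1, which was not analysed here. The part of these shared bases in the DDIT3 value was not tested.

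ATF3, a stress-induced factor that represses or activates its targets depending on its partner, had 62.7, 91.5 and 72.6 CPM in the treated libraries, against 7.87, 9.36 and 8.94 CPM in the DMSO libraries. The treated libraries differed among themselves more than for ATF4 or ATF5 (coefficient of variation 19.3%), yet the lowest of them was far above the highest DMSO library. The log2 fold change was 3.11 (SE 0.11, adjusted p = 5.46e-20). JDP2, a repressor of AP-1 sites that is closely related to ATF3, was scarce. It had 9.78, 9.19 and 8.06 CPM in the treated libraries, against 1.61, 1.68 and 1.41 CPM in the DMSO libraries (log2 fold change 2.53, SE 0.20, adjusted p = 4.45e-12). For both of these factors, which bind related sites, the groups were apart.

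Of the tribbles pseudokinases, which lack normal kinase activity and act as scaffolds, TRIB3 alone rose strongly. TRIB3 binds ATF4 and DDIT3 and restrains them as a feedback inhibitor. It had 463, 544 and 504 CPM in the treated libraries, against 98.4, 101 and 102 CPM in the DMSO libraries (log2 fold change 2.32, SE 0.05, adjusted p = 1.44e-25). The feedback inhibitor thus rose along with the factors it binds, and its groups lay far apart. TRIB2, which with TRIB1 brings C/EBPα to the ubiquitin ligase COP1, had 62.9, 58.2 and 62.7 CPM in the treated libraries, against 51.0, 51.9 and 53.3 CPM in the DMSO libraries. This was a small rise without overlap (log2 fold change 0.23, SE 0.06, adjusted p = 0.000792). TRIB1 had 9.68, 9.76 and 9.09 CPM in the treated libraries, against 11.4, 14.3 and 12.1 CPM in the DMSO libraries. It was the one member that fell (log2 fold change -0.40, SE 0.12, adjusted p = 0.00522). Neither the TRIB1 nor the TRIB2 call held against a minimum fold change of 1.2 (adjusted p = 0.105 for TRIB1 and 0.674 for TRIB2).

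CHAC1, a γ-glutamylcyclotransferase that cleaves cytosolic glutathione, had 46.3, 51.2 and 50.6 CPM in the treated libraries, against 6.10, 5.43 and 4.36 CPM in the DMSO libraries. Both groups were tight relative to the distance between them, and the log2 fold change was 3.23 (SE 0.10, adjusted p = 3.09e-21). NUPR1, a small stress-induced protein bound to chromatin, was near the limit of detection. It had 27, 56 and 46 counts in the treated libraries, against 3, 1 and 1 counts in the DMSO libraries, or 1.38, 2.67 and 2.16 CPM in treated and 0.166, 0.0560 and 0.0454 CPM in DMSO libraries. A count of 3 in a library is worth 0.136 to 0.168 CPM here, so the DMSO level rests on 5 counts in all. The ratio of 129 treated to 5 DMSO counts, scaled by library size, was 24.1 with an exact 95% binomial interval of 10.1 to 75.6, which covers counting error only. Its fitted log2 fold change of 4.49 (SE 0.55, adjusted p = 3.59e-08) depends on the prior count, and it passed the filter on low counts only through the treated libraries. Without DMSO replicate 1, which held 3 of the 5 counts, the fitted value was 5.20.

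Non-overlap between the groups was itself common. All treated libraries lay above all DMSO libraries in 35.5% of genes tested and in 9 members, and below in 34.5% of genes and in 1 member. The 9 include NUPR1, which passed the filter on low counts only through the treated libraries. Within the treated group, replicate 1 was the lowest library for 7 of those 9 members and replicate 2 the highest for 7. These 2 libraries were also the most different replicate pair over all genes, with a chi-square per degree of freedom of 6.22 where other pairs had between 2.38 and 4.25. The part of this in the members' spread was not tested.

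The promoters were read for sequence elements of the factors above. RefSeq windows of GRCh38.p14, from 250 bases before to 50 bases after a gene's start, were at hand for 8 members. TRIB1 and NUPR1 were not searched. A single window was read per gene, so any other start of a gene was not searched, and the start used need not be its main start. On both strands, matches were sought to the core of the composite element of ATF4 and C/EBP factors (TGATGNAA), to the CRE bound by ATF and CREB dimers (TGACGTCA) and to the AP-1 element (TGANTCA, which reads alike on both strands). CHAC1 and ATF3, members with steep rises, each had a composite core, shown in capitals 5′ to 3′ on the strand of the gene. In CHAC1 (chr15:40953221-40953520, plus strand) the core lies on the opposite strand at positions -209 to -202 from the start, and in ATF3 (chr1:212565157-212565456, plus strand) it lies on the gene's strand at positions -191 to -184.
CHAC1: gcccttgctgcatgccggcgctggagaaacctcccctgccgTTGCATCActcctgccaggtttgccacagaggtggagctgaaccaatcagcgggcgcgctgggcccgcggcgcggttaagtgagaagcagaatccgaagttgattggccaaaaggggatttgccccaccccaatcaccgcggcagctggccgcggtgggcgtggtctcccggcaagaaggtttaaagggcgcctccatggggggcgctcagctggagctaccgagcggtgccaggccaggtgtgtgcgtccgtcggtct
ATF3: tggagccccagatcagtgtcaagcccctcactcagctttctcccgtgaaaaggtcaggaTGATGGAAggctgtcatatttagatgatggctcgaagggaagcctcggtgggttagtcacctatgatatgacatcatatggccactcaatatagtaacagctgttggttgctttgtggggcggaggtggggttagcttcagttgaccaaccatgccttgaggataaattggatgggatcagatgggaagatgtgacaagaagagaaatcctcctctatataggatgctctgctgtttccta
DDIT3 (chr12:57520465-57520764, minus strand) and ATF5 had instead 1 AP-1 element each, in DDIT3 at positions -241 to -235, in capitals here, and in ATF5 at positions -188 to -182.
DDIT3: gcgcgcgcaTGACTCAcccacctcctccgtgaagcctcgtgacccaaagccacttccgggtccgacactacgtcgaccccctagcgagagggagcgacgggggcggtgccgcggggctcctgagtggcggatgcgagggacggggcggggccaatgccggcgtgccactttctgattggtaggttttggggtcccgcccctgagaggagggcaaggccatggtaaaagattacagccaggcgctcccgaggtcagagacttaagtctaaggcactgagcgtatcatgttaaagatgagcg
The composite core was thus in 2 of 8 member windows, against 3.67% of 27305 windows of all genes and 1.68% of 8946 windows of tested genes. AP-1 elements were in 2 of 8, against 7.76% of all windows and 4.33% of those of tested genes. ATF4, TRIB3, TRIB2 and JDP2 held none of these letters, and no member held a CRE, which 1.98% of all windows did. The longer form TGATGCAAT was in 0 member windows and in 0.264% of all. A match describes letters in a window and not a bound site, and elements farther away were not searched. CHAC1 and ATF3 were listed as genes that ATF4 raises, so their composite cores are no independent evidence of binding.

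Relative to ATF4 in the same library, several members moved further than ATF4 did. The log2 ratio of CHAC1 to ATF4 was 2.02 higher in treated than in DMSO libraries, with means of -3.83 ± 0.06 in treated and -5.85 ± 0.25 in DMSO libraries (SD, n = 3 each). The corresponding differences were 1.89 for ATF3, 1.72 for ATF5, 1.11 for TRIB3 and 0.96 for DDIT3, and 3.52 for NUPR1, whose ratio rests on few DMSO counts. In each of these 6 ratios every treated library lay above every DMSO library. Among the pseudokinases the ratio of TRIB2 to TRIB3 was lower by 2.08 and that of TRIB1 to TRIB3 by 2.72 on the log2 scale. JDP2 rose less than ATF3, and their ratio was lower by 0.58, with treated values from -3.32 to -2.68 just below the DMSO values from -2.67 to -2.29. With 3 libraries against 3 an exact permutation test cannot go below 0.10, so these ratios are given without a test. Gene lengths do not enter a difference of ratios between groups.

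**Figure D2:**
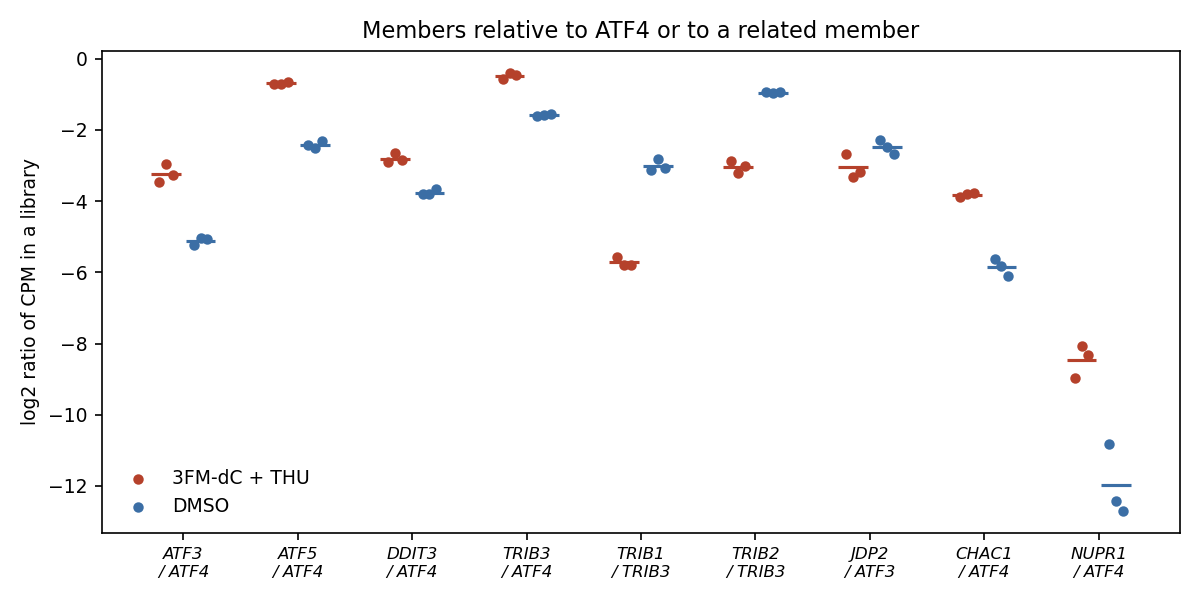
Log2 ratio of the CPM of a member to that of ATF4, or of a related member, in each library, with 3FM-dC plus THU libraries left (red) and DMSO libraries right (blue) of each pair and bars at the group means. Ratios to ATF4 are higher in every treated library, by 0.96 (DDIT3) to 3.52 (NUPR1) on average, while TRIB1 and TRIB2 relative to TRIB3 are lower.

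Levels of different genes were compared per length, as CPM per kilobase of annotated exon. In treated cells the order ran from ATF4 with 279 ± 5.29 through ATF5 with 147 ± 2.92, TRIB3 with 147 ± 11.9, DDIT3 with 77.0 ± 9.21, CHAC1 with 24.0 ± 1.29, ATF3 with 18.7 ± 3.62, TRIB2 with 13.4 ± 0.577, TRIB1 with 2.30 ± 0.0882 and JDP2 with 1.44 ± 0.140 to NUPR1 with 0.364 ± 0.114 CPM per kb (SD, n = 3). The library ranges of ATF5 and TRIB3 overlapped, as did those of CHAC1 and ATF3, and other neighbours were apart. In DMSO cells ATF4 had 120.1 ± 1.38, TRIB3 29.3 ± 0.599, ATF5 19.2 ± 1.14, DDIT3 17.1 ± 0.927, TRIB2 11.4 ± 0.252, TRIB1 3.04 ± 0.368, CHAC1 2.57 ± 0.428, ATF3 2.16 ± 0.189, JDP2 0.251 ± 0.0228 and NUPR1 0.0157 ± 0.0118 CPM per kb. Here only TRIB1 with CHAC1 and CHAC1 with ATF3 had overlapping ranges. TRIB2 thus stood below CHAC1 and ATF3 in treated cells and above both in DMSO cells. By the longest transcript ATF3 came to 35.9 CPM per kb in treated and 4.15 CPM per kb in DMSO cells and stood above CHAC1 in both, while TRIB2 kept its place. NUPR1 was divided by 5674 bases of annotated exon, or by 5491 bases of its longest transcript. Shorter transcripts were not used, so its last place rests on these lengths. Among 11369 tested genes with a length, ATF4 stood at percentile 99.3 in treated and 97.3 in DMSO cells, and ATF5 at 98.3 in treated and 75.9 in DMSO cells. ATF3 stood at percentile 77.0 in treated and 28.5 in DMSO cells, and CHAC1 at 82.2 in treated and 31.1 in DMSO cells.

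**Figure D3:**
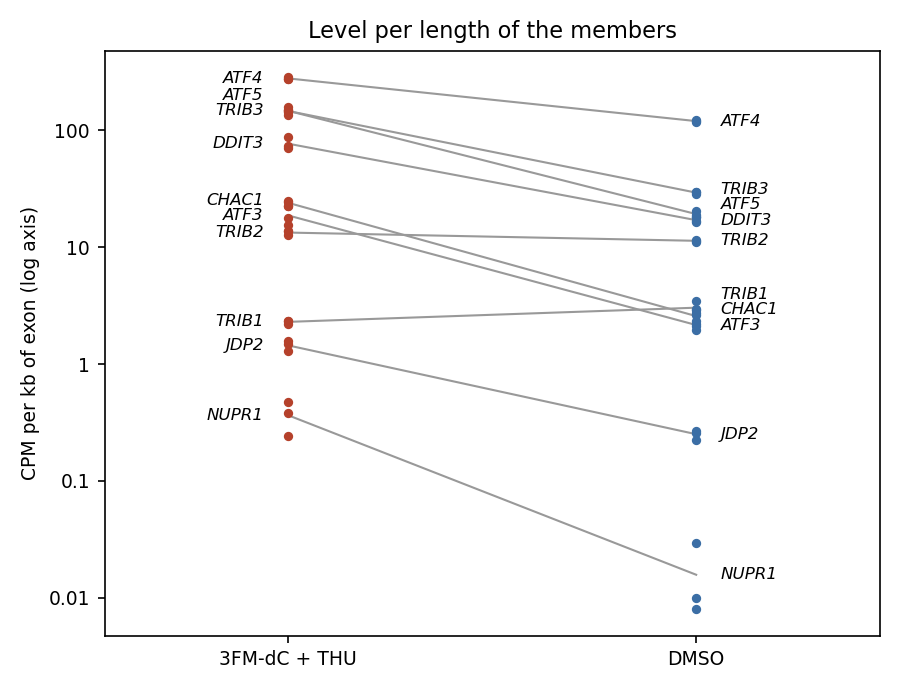
Level of each member as CPM per kb of annotated exon on a log axis, with 3 points per group for the libraries, 3FM-dC plus THU left (red) and DMSO right (blue), and grey lines joining the group means. CHAC1 and ATF3 lie above TRIB2 and TRIB1 in treated cells (24.0 and 18.7, against 13.4 and 2.30 CPM per kb) and below TRIB2 in DMSO cells.

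Of 14 genes upstream of ATF4, for eIF2 kinases, phosphatase subunits and their regulators, 6 were higher, 5 lower and 3 did not pass, with a median log2 fold change of 0.05 (8 higher and 4 lower with total counts). These shares are near those over all genes tested, of which 33.8% were higher and 32.7% lower, and are no result about the list. PPP1R15A, the inducible phosphatase subunit known as GADD34 that removes the phosphate from eIF2, rose most, with 180.2 ± 18.2 CPM in treated and 81.4 ± 1.37 CPM in DMSO cells (log2 fold change 1.15, SE 0.05, adjusted p = 7.83e-17). It is also on the list of reported ATF4 target effectors below, so the same rise counts in both lists. EIF2S1, the eIF2 subunit that is phosphorylated, fell by 0.53 (SE 0.04, adjusted p = 1.05e-12). Of the kinases EIF2AK3 (PERK) was higher, with 23.8 CPM in treated and 15.7 CPM in DMSO cells (adjusted p = 2.25e-06). EIF2AK2 (PKR) was slightly higher (adjusted p = 0.0266), while EIF2AK1 (HRI, adjusted p = 8.12e-05) and EIF2AK4 (GCN2, adjusted p = 0.0425) were slightly lower. All passed the threshold, EIF2AK2 and EIF2AK4 narrowly.

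Genes downstream of ATF4 rose together. Of 47 reported target effectors, 46 were tested, of which 42 rose, 28 of them at least 2-fold, and 1 fell, with a median log2 fold change of 1.31 against 0.01 for all genes tested. Of all genes tested 33.8% were higher, 10.2% by at least 2-fold, and 32.7% were lower. The list was chosen with results of these libraries known, so its direction is no independent evidence. The largest rise was that of PHGDH, the first enzyme of serine synthesis, with 301 ± 4.75 CPM in treated and 29.2 ± 0.362 CPM in DMSO cells. ALDH18A1, an enzyme of proline synthesis, fell by 0.76 on the log2 scale, and PYCR1, CBS and ERO1L did not pass. A composite core was in 5 of the 30 effector windows (16.7%), beside 1.68% of the windows of tested genes. Genes may have been reported as ATF4 targets because of such elements, so this share is no independent evidence either. Of the other lists it was in 0 of 24 windows of bZIP partners and regulators, 0 of 17 of ATF and CREB factors and 0 of 10 of glutathione genes. It was in 1 of 26 of the ATF6 and XBP1 list, 1 of 11 of the eIF2 kinase list and 1 of 19 of the tribbles list.

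Of 30 genes, for bZIP factors that could pair with the members and for regulators, 27 were tested. Of these 14 rose, 6 fell and 7 did not pass (median log2 fold change 0.30). Over all genes tested 33.8% were higher and 32.7% lower. The list also holds genes that encode no bZIP factor. Among them CEBPZ (log2 fold change -0.63) and EGLN3 (-0.61) fell, EP300 (0.38) and FBXW11 (0.19) rose, and BTRC did not pass. BACH2, a repressor of the CNC family, rose most, with 18.2 ± 3.41 CPM in treated and 1.67 ± 0.588 CPM in DMSO cells (log2 fold change 3.42, SE 0.19, adjusted p = 2.40e-15). NFE2, an erythroid and megakaryocytic factor, fell by 1.31 (SE 0.05, adjusted p = 1.26e-19). CEBPB and CEBPG, C/EBP partners of ATF4 and DDIT3, were higher by 1.31 and 1.23 on the log2 scale. Among 19 other ATF and CREB factors and coactivators 18 were tested, of which 12 rose and ATF1 fell (median 0.42). The largest rise, of CREB5, brought it to 7.55 ± 0.987 CPM in treated cells, against 2.82 ± 0.227 CPM in DMSO cells.

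Genes of the ATF6 and XBP1 arms of the unfolded protein response, which share ER stress with the PERK and ATF4 arm, rose in 19 and fell in 5 of 29 members, 6 of them rising at least 2-fold (median 0.24). Over all genes tested 33.8% were higher, 10.2% by at least 2-fold, and 32.7% were lower. Many of these rises were small, and against a minimum fold change of 1.2 the list had 13 genes higher and 1 lower. ERN1, the IRE1 sensor that splices XBP1, rose by 1.85 (SE 0.12, adjusted p = 1.35e-13) and the ER protein gene SDF2L1 fell by 0.48.

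Of 21 interactors and targets of tribbles proteins 8 rose, 7 fell and 6 did not pass (median 0.00), shares near the 33.8% and 32.7% over all genes tested. RFWD2, which encodes the ligase COP1, had 83.6 CPM in treated and 83.1 CPM in DMSO cells (adjusted p = 0.88). The largest rise and the largest fall belonged to the acetyl-CoA carboxylases, of which ACACB had 9.29 ± 0.753 CPM in treated and 0.935 ± 0.180 CPM in DMSO cells, and ACACA had 166 ± 21.5 CPM in treated and 289 ± 7.12 CPM in DMSO cells. Of 18 genes of glutathione breakdown and synthesis 15 were tested, of which 8 rose and 3 fell (median 0.20). SLC7A11, which imports the cystine that glutathione is made from, rose 3.98-fold. CHAC2, a paralogue of CHAC1, went the other way from it, with 12.3 ± 1.27 CPM in treated and 22.7 ± 1.37 CPM in DMSO cells (log2 fold change -0.88, SE 0.10, adjusted p = 1.10e-08).

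**Figure D4:**
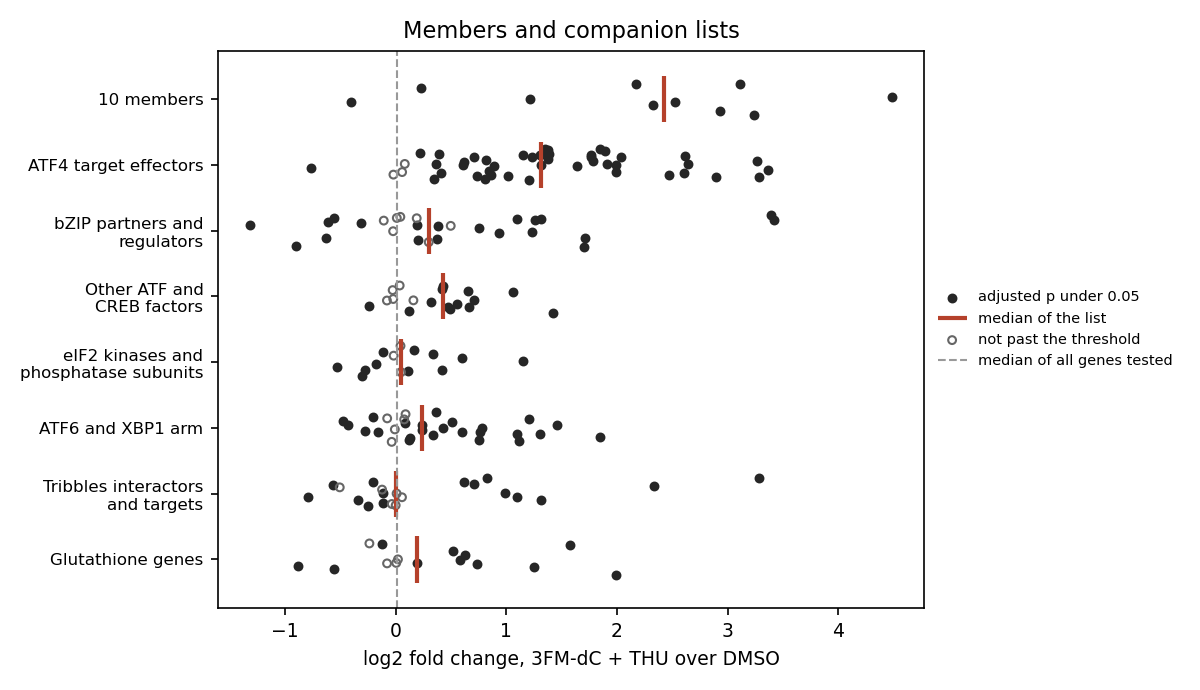
Log2 fold change of 3FM-dC plus THU over DMSO for the 10 members and for each tested gene of the 7 companion lists, filled where the adjusted p is under 0.05, with red bars at list medians and a dashed line at the median of all genes tested (0.01). The members have a median of 2.42 and the target effectors of 1.31, while the other lists lie between 0.00 and 0.42.

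The genes whose profile over the 6 libraries lay nearest to that of ATF4 were ALDH2, TRIM38, TCEA1, NEBL and PSPH, at distances of 0.122 to 0.135. The distance is Euclidean, on log2(CPM + 1) centred on the DMSO mean, over 10803 genes with at least 2 CPM on average. PSPH, a serine synthesis enzyme, is itself on the effector list. Nearest to DDIT3 were TPM4, IER3, ATP2A3, TRPV6 and IDS, at 0.170 to 0.261. The added 1 CPM brings genes of low level nearer: TRPV6, with 4.79 CPM in treated and 0.377 CPM in DMSO cells, had a log2 fold change of 3.64, against 2.17 for DDIT3.

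The authors' deposited table gives fold ratios of an unnamed group B over group A for the same genes, from 0.749 for TRIB1 and 1.16 for TRIB2 to 22.9 for NUPR1. The largest adjusted p among the members in the authors' deposited table was 0.00740, for TRIB1.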

How the data were processed

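Gene expression of 6 K562 libraries was measured by mRNA sequencing, with libraries made from 1000 ng of RNA with a directional kit, per the labels' protocols. For each library the authors deposited a file of raw counts, with 1 row per gene symbol. STAR, Cufflinks, DESeq2 and hg19 are listed without roles, per the submitters' processing notes, and the sources used here give neither the strand setting nor the annotation of the counting. The authors also deposited a table with a fold ratio and an adjusted p-value per gene, per the file headers, which served only for comparison.

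The 5 totals of unassigned reads were left out of library sizes. Reads in no feature made up 10.9% to 13.1% and ambiguous reads 2.27% to 2.38% of deposited counts. Counts were tested with edgeR 4.0.16 in R 4.3.3 (TMM factors, filterByExpr with a minimum count of 10, quasi-likelihood test, two-sided, Benjamini-Hochberg over all 12339 genes kept of 23710 symbols), with a change called at an adjusted p below 0.05. The test was run on simulated counts with few changed genes and the same dispersion for all. That run does not show how the test behaves where most genes are called, as here. limma 3.58.1 and DESeq2 1.42.0 were alternatives. CPM means carry the SD of 3 libraries, and log2 fold changes carry their SE. Exon lengths, overlapping genes and similar transcripts came from GENCODE release 29 (GRCh38), matched by symbol, while the counts are on hg19, so no coordinates of the counts are given. Replicate pairs differed beyond counting noise and were kept apart. The members and lists were chosen with earlier results of these data known, and the rule for named genes took all members, the largest called rise and fall of each companion list at 2 CPM or more, and the 5 nearest profiles of ATF4 and DDIT3. MARS, MBD6, NUP62, CEBPB, CEBPG, CEBPZ, EGLN3, EP300, FBXW11, BTRC, the eIF2 kinases, RFWD2, PYCR1, CBS and ERO1L were named outside this rule, after their values had been seen. Companion lists share some genes, among them PPP1R15A, SLC7A11, CEBPB and CEBPG, and such a gene counts in every list that holds it.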

Additional observations from a re-analysis of the deposited data

How the results depend on the processing

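For the members, 137 of 139 recomputed fold changes kept their direction and side of the threshold (DESeq2, limma-voom, RLE size factors, total counts, no filter, a filter at 5 CPM, a minimum fold change of 1.2, a replicate block, and each library left out). The exceptions were TRIB1 (-0.40) and TRIB2 (0.23) against the minimum fold change of 1.2, which left 0 members lower by edgeR (1 at an unadjusted p under 0.05; DESeq2, run with no minimum fold change, had 1), and NUPR1 was not tested at 5 CPM. TRIB1 lay between -0.47 and -0.31, with an adjusted p of 0.0469 without DMSO replicate 2. NUPR1 lay between 4.14 and 5.20 with 1 library left out. The minimum fold change left 2641 genes higher and 2124 lower, 1 of the ATF6 and XBP1 list lower, 3 of the eIF2 kinase list higher and 1 lower, 0 of the other ATF and CREB factors lower (0 also at an unadjusted p under 0.05, and 1 with DESeq2 and no minimum fold change) and 3 of the tribbles list lower. Total counts left 3 of the ATF6 and XBP1 list lower, and the filter at 5 CPM left 5 glutathione genes higher. With a replicate block 4091 genes were higher and 3959 lower, and 9 members higher and 1 lower. Replicate numbers did not pair the libraries (correlations of deviations 0.000109, -0.00322 and -0.0732). By the longest transcript, 8 of 10 members kept their place in the treated order and 7 in the DMSO order. Ranking by Pearson's r shared 0 of 5 nearest genes for ATF4 and 1 of 5 for DDIT3, and the longer composite element was in 0 member windows. The NUPR1 value rests on 5 DMSO counts.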
